A study of Mus musculus with 5 samples.

Results

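The Notch signalling genes of differentiating mouse embryonic stem cells (ESCs) were followed over motor neuron (MN) differentiation through 10 members, of 19897 genes with a matched array probe: the ligands Dll1, Dll3 and Jag1, the receptors Notch1 and Notch3, the sugar transferase Lfng, and the HES and HEY family genes Hes1, Hes5, Hey1 and Hes6. The members were taken by name, and all 12 of their probes were used. Dll3 and Notch1 had 2 probes each and the other 8 members had 1. RNA of wild type male cells was measured on 5 one-colour arrays, 1 per time point: undifferentiated ES cells, embryoid bodies (EBs, floating aggregates of the cells) after 8 h of retinoic acid (RA) at Day2, EBs after 1 day and 2 days of RA at Day3 and Day4, and MN cultures after 5 days of RA at Day7. In the labels RA is combined with Shh, and the methods name a smoothened agonist, which acts on the same pathway. The labels give the RA and Shh treatment as running from day 2 to day 5, so the 5 days counted for the last sample would reach past it. The clone or line of these cultures was not given in the sources used here, and no treated time point had an untreated control of the same age.

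In Notch signalling, a Delta or Jagged ligand on one cell binds a Notch receptor on its neighbour. The receptor is then cut, and its intracellular part enters the nucleus, where it joins the DNA-binding protein Rbpj and a Mastermind protein and switches on genes such as Hes1, Hes5 and Hey1. The HES and HEY proteins repress proneural genes, so that a neural progenitor with active Notch stays a progenitor, whereas a neighbour that escapes becomes a neuron and displays more ligand. In the ventral spinal cord this exchange is known to set how many progenitors leave the cycle at a time.

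Each value below is the log2 signal of a probe after quantile normalization, which gives all 5 arrays the same distribution of values. Signals of different probes are not comparable with each other, so that only the course of a gene across arrays is described. A gene is called raised or lowered where it differed at least 2-fold, that is by 1 on the log2 scale, between 2 arrays. Each time point was measured once, which left no replicate error and allowed no test. Technical error could be read only from probes printed in several spots, whose SD within an array had a median between 0.05 on Day7 and 0.10 on Day2 on the log2 scale. The RNA came from whole cultures, so that more cells of a type and more RNA per cell cannot be told apart. The ES cell markers fell from a mean log2 signal of 12.12 in ES cells to 9.55 at Day7, with 4 of 6 lowered at least 2-fold, and the 6 MN markers rose from 6.25 to 12.55, with 6 of 6 raised at least 2-fold. Those of the floor plate and the p3 domain, which neighbour the MN progenitors, went from 5.90 to 12.61 and were also raised in 3 of 3 cases. The Day2 array stood apart. It had 86.7% of all mouse probes well above background, where the other arrays had 57.5% to 65.7%. The same was true of 68.4% of its spots for ERCC control sequences, which are not from mouse, against 6.13% to 12.0% elsewhere. Each of the 10 members had a probe well above background on every array, and none of their spots was saturated. The Day7 array was on another slide than the other 4.

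**Figure D1:**
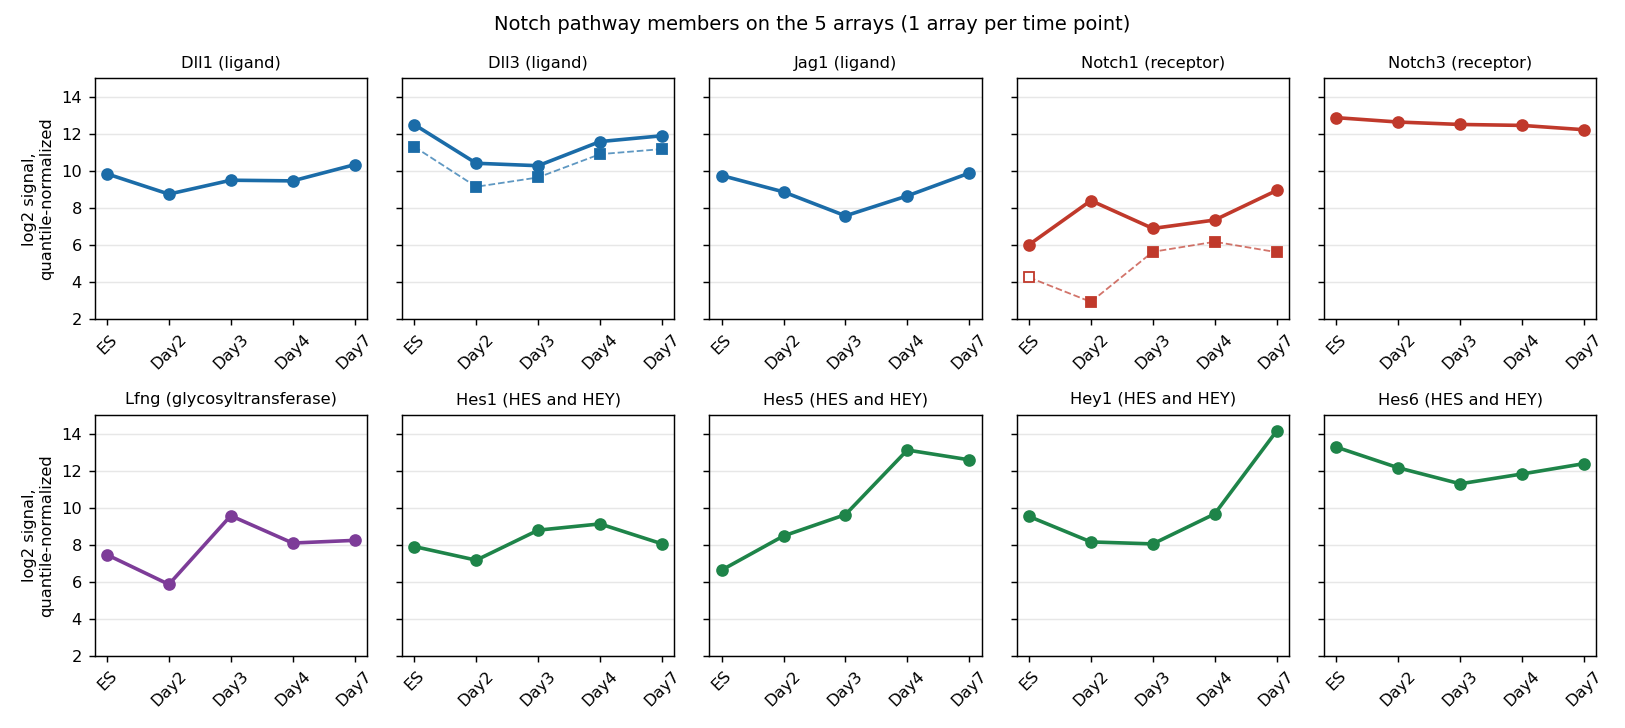
Quantile-normalized log2 signal (vertical axis) of the 10 members on the 5 arrays (horizontal axis, 1 array per time point, in order of differentiation). Circles show the probe used for the gene, squares the dimmer probe of Dll3 and Notch1, and an open marker a probe not well above background. Hes5 reached 13.11 on Day4 and Hey1 14.14 on Day7, Notch3 stayed within 0.65 across the arrays, and the probes of Notch1 took different courses.

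The members did not move as a group. From ES cells to Day2, 2 of 10 were raised (Notch1 and Hes5) and 5 were lowered (Dll1, Dll3, Lfng, Hey1 and Hes6), where 8.82% of all genes with a value were raised and 11.3% lowered. The median log2 change of the members was -0.99, against 0.00 for all genes. Of the 18315 genes with a value in that comparison, 2452 were dim on 1 array, gave no fold and were kept at 0. Without them the shares were 10.2% and 13.0% and the median -0.01. From Day2 to Day3 there were 2633 such genes, without which the shares given next were 15.2% and 9.06%, and no member was among them. From Day2 to Day3, 3 members were raised (Lfng, Hes1 and Hes5) and 2 lowered (Jag1 and Notch1), against 13.0% and 7.76% of all genes. From Day3 to Day4, 4 members were raised (Dll3, Jag1, Hes5 and Hey1) and 1 was lowered (Lfng), against 3.62% and 4.85% of all genes, and the members had a median of 0.49, against -0.01 for all genes. From Day4 to Day7, 3 were raised (Jag1, Notch1 and Hey1) and 1 was lowered (Hes1), against 17.8% and 18.1%. These shares describe the arrays, since the members were picked by name and are too few for a share of their own. Over the comparison of ES cells with Day3, which leaves the Day2 array out, 2 members were raised (Lfng and Hes5) and 4 lowered (Dll3, Jag1, Hey1 and Hes6), against 14.2% and 10.2% of all genes. Between ES cells and Day7, 3 were raised (Notch1, Hes5 and Hey1) and 0 lowered, against 23.2% and 24.4%. With each array shifted to its own 75th percentile in place of quantile normalization, the split at Day2 was 2 raised and 3 lowered, and that of Day7 against ES cells was 3 raised and 2 lowered, as Notch3 and Hes6 then passed 2-fold downwards. The split from Day2 to Day3 was 2 raised and 2 lowered after that shift, 1 and 4 without normalization, and 3 and 0 under normexp, a model-based background correction run before quantile normalization. From Day4 to Day7 it was 8 raised and 0 lowered without normalization and 3 and 0 under normexp. Without normalization 2 were raised and 2 lowered from ES cells to Day2, 2 raised and 1 lowered between Day3 and Day4, and 4 raised and 1 lowered between ES cells and Day7.

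**Figure D2:**
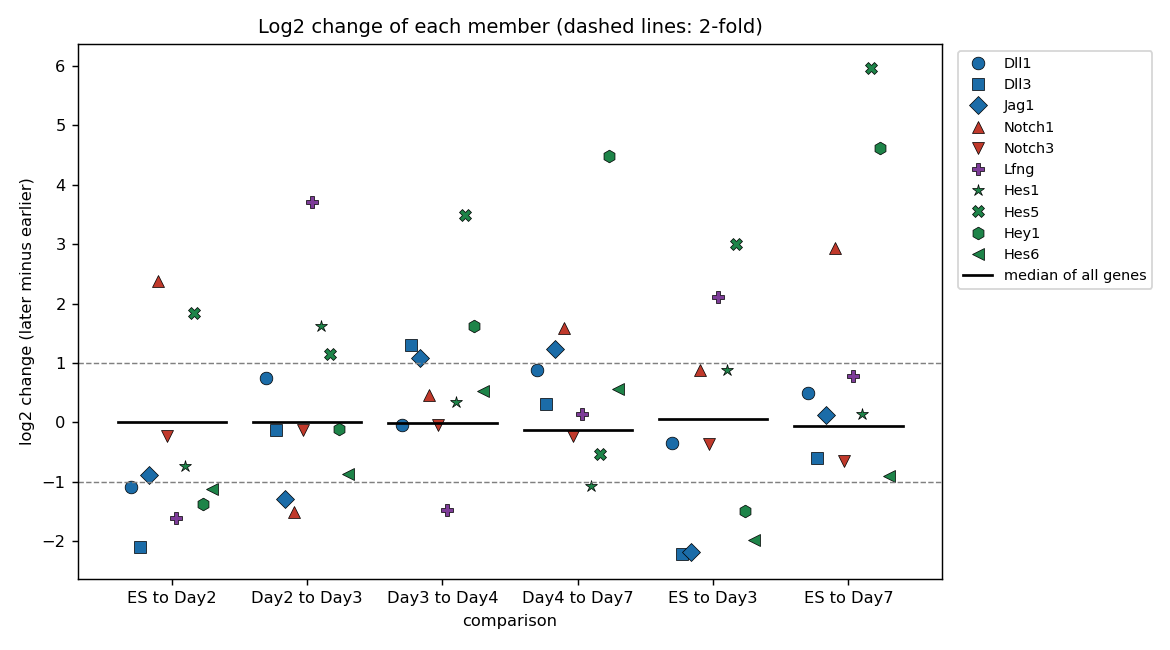
Log2 change of each member (later minus earlier array, vertical axis) in the 6 comparisons (horizontal axis), with colour for role (blue ligands, red receptors, purple Lfng, green HES and HEY genes), black bars for the median of all genes and dashed lines at 2-fold. Between successive arrays the widest changes plotted are those of Hey1 from Day4 to Day7 (4.48), Lfng from Day2 to Day3 (3.71, and at least 2.18 with the Day2 value raised to the level of the ERCC control probes) and Hes5 from Day3 to Day4 (3.49).

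Of the ligands, Dll1 is the Delta protein that neurons newly born in the spinal cord display to their neighbours. Its probe was printed in 10 spots on each array, which gave it an error of its own: the log2 signal was 9.84 ± 0.07 (SD over 10 spots) in ES cells and 8.75 ± 0.11 on Day2, followed by 9.50 ± 0.03 on Day3, 9.47 ± 0.03 on Day4 and 10.34 ± 0.04 on Day7. The spots of Day2 lay below those of every other array and the spots of Day7 above them, whereas those of Day3 and Day4 overlapped. This spread covers printing and scanning within an array and not the differences between cultures. Dll1 was lowered 2.14-fold from ES cells to Day2, a change of -1.09 on the log2 scale that was -0.97 after the 75th percentile shift and so short of 2-fold. In all other comparisons it changed by less than 2-fold after quantile normalization, and it was at 0.49 above ES cells on Day7. The change from Day4 to Day7 was 0.87, and 2.18 without normalization.

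**Figure D3:**
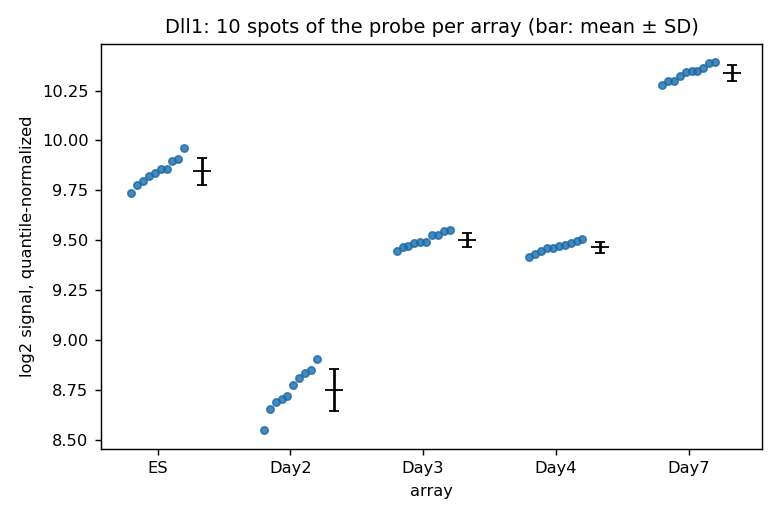
Quantile-normalized log2 signal (vertical axis) of each of the 10 spots of the Dll1 probe on each array (horizontal axis), with bars for the mean ± SD of the spots, sorted by value within an array. The Day2 spots (8.55 to 8.91) lie lowest and the Day7 spots (10.28 to 10.39) highest, and the Day3 and Day4 spots overlap.

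Dll3, a divergent Delta protein that acts within the cell and dampens Notch, was high in ES cells, low on Day2 and Day3, and partly back from Day4 on. On the log2 scale it had 12.51 in ES cells and 10.42 on Day2, followed by 10.28 on Day3, 11.59 on Day4 and 11.90 on Day7. The dimmer probe ran at 11.31, 9.15, 9.65, 10.91 and 11.18 in the same order. Both probes therefore gave a fall of over 4-fold from ES cells to Day2, by 2.09 and by 2.16 on the log2 scale, and a rise from Day3 to Day4, of 1.30 and 1.26. Without normalization the latter rise was 0.82 for the brighter probe, under 2-fold. They differed in sign between Day2 and Day3, where the changes were -0.13 and 0.50, both under 2-fold. By way of scale, the 2 brightest probes of a gene differed in their log2 change from Day2 to Day3 by a median of 0.43 over 3753 genes. Jag1, the ligand of the Jagged type, was lowest on Day3. It stood at a log2 signal of 9.76 in ES cells and 8.87 on Day2, followed by 7.58 on Day3, 8.66 on Day4 and 9.89 on Day7, so that the Day7 value was back at that of ES cells, 0.13 apart. Jag1 was lowered 4.53-fold from ES cells to Day3, and was then raised 2.11-fold to Day4 and 2.35-fold to Day7. Over the settings the fall to Day3 lay between -2.85 and -1.80 on the log2 scale and the rise from Day4 to Day7 between 1.07 and 2.56. The rise to Day4 was 0.77 without normalization and 0.86 under normexp, below 2-fold.

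Notch3, one of the 2 receptors, had the narrowest range of the members, with log2 signals of 12.88 in ES cells and 12.64 on Day2, followed by 12.51 on Day3, 12.46 on Day4 and 12.23 on Day7. It passed 2-fold in none of the 6 comparisons in this setting, although the difference of -0.65 between Day7 and ES cells became -1.10 after the 75th percentile shift. Notch1 had no course that its probes shared. The brighter probe had a log2 signal of 6.02 in ES cells and 8.40 on Day2, followed by 6.90 on Day3, 7.35 on Day4 and 8.95 on Day7. By this probe Notch1 was raised 5.22-fold on Day2, lowered 2.84-fold to Day3 and raised 3.02-fold from Day4 to Day7, where it was 7.61-fold above ES cells. Over the settings the change from Day4 to Day7 lay between -0.56 and 2.95 on the log2 scale. That from ES cells to Day7 lay between 0.60 and 3.42, and was 2.09 under normexp. The ES cell value of the brighter probe was below the 95th percentile of the ERCC probes on that array, at 6.58. In ES cells the dimmer probe did not clear the background, and it stood at 2.93 on Day2, rose to 5.63 on Day3, and was at 6.18 and 5.61 on Day4 and Day7. It gave no fold from ES cells to Day2, a rise of 2.70 from Day2 to Day3, where the brighter probe fell by 1.51, and a lower bound of only 0.60 for Day7 over ES cells. Its Day2 value lay far below the 95th percentile of the ERCC probes on that array, at 7.39, so that the size and the sign of its change from Day2 to Day3 are uncertain. Both probes were higher on Day4 than on Day3, by 0.46 and 0.54, which is under 2-fold. The rise of Notch1 on Day2 is thus a value of 1 probe, on the array where most control sequences of foreign origin also gave signal. The part of that signal in the Notch1 value was not tested. With the floor of each array set at the 95th percentile of its ERCC probes, the Day2 change of the brighter probe was at least 1.82.

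Lfng, or Lunatic fringe, adds a sugar to Notch in the Golgi that favours its activation by Delta over Jagged ligands. The log2 signal of Lfng was 7.46 in ES cells and 5.86 on Day2, followed by 9.57 on Day3, 8.09 on Day4 and 8.23 on Day7, so that Day3 stood alone as the highest array. From Day2 to Day3 Lfng was raised 13.1-fold, rank 83 of 18307 genes by size of rise, and from Day3 to Day4 it was lowered 2.78-fold, rank 309 of 15624 by size of fall. The low value on Day2 is less certain, since it lay below the 95th percentile of the ERCC probes on that array, at 7.39. The rise to Day3, 3.71 on the log2 scale, was 2.79 after the 75th percentile shift, 2.62 under normexp, 2.06 without normalization and at least 2.18 with the Day2 value raised to the ERCC level. The fall of 1.60 from ES cells became -0.58 after the 75th percentile shift and -0.07 with that same change of floor, and its unnormalized signals were 186 in ES cells and 145 on Day2, against 605 on Day3. Without the Day2 array, Lfng was 4.31-fold above ES cells on Day3, a log2 change of 2.11 that lay between 1.70 and 2.21 over the settings tried. Over the step from Day2 to Day3, 3 of 4 markers of mesoderm and endoderm were raised and 1 was lowered, with a mean log2 signal of 6.71 on Day2 and 7.60 on Day3, followed by 8.02 on Day4 and 5.31 on Day7, and T, a defining mesoderm marker, was not well above background from Day3 on. Of the 3 glial markers 2 were raised, with a mean of 6.07 on Day2 and 7.49 on Day3. All of these raised markers started below the ERCC level of 7.39 on Day2. Sox17 was at 6.40, Gata4 at 6.95, Gata6 at 6.47, Gfap at 3.04 and Sox10 at 7.06. From ES cells to Day3, 0 of 3 glial markers were raised. Of the 4 markers of mesoderm and endoderm, 2 were raised and 1 was lowered over that comparison. The part of these cell types in the Lfng values was not tested. The 250 bases before the start of Lfng are shown because they hold a pair of letter runs read by Rbpj, the DNA-binding protein of the pathway. They lie at chr5:140607091-140607340 (+ strand, GRCm38.p6, from RefSeq), and the capitals mark TGGGAA or its reverse complement TTCCCA.
Lfng: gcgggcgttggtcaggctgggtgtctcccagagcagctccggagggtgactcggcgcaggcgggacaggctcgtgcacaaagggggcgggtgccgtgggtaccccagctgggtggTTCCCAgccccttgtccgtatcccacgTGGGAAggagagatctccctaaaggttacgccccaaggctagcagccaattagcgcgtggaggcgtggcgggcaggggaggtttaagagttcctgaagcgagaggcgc
The first run of capitals lies from -135 to -130 and the other from -108 to -103, counted back from the start of the transcript. The latter extends to GTGGGAA and overlaps a CACGTG, a motif of basic helix-loop-helix factors, at -112 to -107.

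Hes5, a repressor, is a main Notch target in neural progenitors of the spinal cord. Of the members it had the widest course after quantile normalization, with a log2 range of 6.49 against 6.10 for Hey1. Without normalization the signals of Hey1 spanned more, 193.6 to 21040, against 102 to 7972 for Hes5. Its log2 signal was 6.63 in ES cells and 8.47 on Day2, followed by 9.63 on Day3, 13.11 on Day4 and 12.59 on Day7. It was raised at 3 of the 4 successive steps and lowered at 0, which no other member was. The steps were 3.60-fold to Day2, 2.22-fold to Day3 and 11.2-fold to Day4, the last being rank 14 of 15624 genes by size of rise. From Day4 to Day7 it changed by -0.53, under 2-fold, and by 0.705 without normalization. At Day7 it stood 62.1-fold above ES cells. This rise of 5.96 on the log2 scale lay between 5.38 and 6.29 over the settings, and the step from Day3 to Day4 between 2.96 and 3.54. The step from Day2 to Day3 was less firm, at 0.97 after the 75th percentile shift and 0.24 without normalization. The 5 markers of neural and MN progenitors did not move together. From Day3 to Day4, 2 were raised and 0 lowered, with Olig2 going from 7.87 to 11.47 and Pax6 from 10.21 to 10.28. From Day4 to Day7, 1 was raised and 2 were lowered. Olig2 and Pax6 fell, to 7.35 and 5.17 on Day7. The other markers were higher on Day7 than on Day4. Nkx6-1 went from 12.73 to 14.31, Nes from 13.33 to 14.28 and Sox1 from 10.05 to 10.77. The dimmer probe of Sox1 fell over that step, from 8.81 to 7.01. Neurog1 and Neurog2, proneural genes of the kind that HES proteins repress, were highest on Day4, as was Hes5 after quantile normalization. Neurog2 was raised by 4.35 from Day3 to Day4 and Neurog1 by at least 2.14. Whether they share cells with Hes5 cannot be read from whole cultures. The promoter of Hes5 is shown for the same reason as that of Lfng, as windows of 30 bases around its Rbpj letters in capitals, both on the + strand of GRCm38.p6 from RefSeq, at chr4:154960685-154960714 and chr4:154960829-154960858.
Hes5, -226 to -221: agggcgagcgcgTTCCCAcagcccggacat
Hes5, -82 to -77: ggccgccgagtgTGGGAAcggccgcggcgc
The runs lie on opposite strands with 138 bases between them, and each extends to GTGGGAA on its own strand. Of the members, 8 had an entry in the promoter table, with 10 promoters in all, and Hes1 and Hey1 had none. TGGGAA on either strand stood in the 250 bases before the start in 2 of these 10 promoters, those of Lfng and Hes5, and in 21.6% of 32851 promoters of the genome. A pair or more stood in 2.77% of them, and GTGGGAA in 5.42%. CACNAG, the N-box that HES proteins can bind, was found in those of Notch1, Notch3, Lfng and Hes6, in its second promoter, and in 36.7% of all, and CACGTG in that of Lfng and in 6.02% of all. A match is a description of the letters and not a bound site.

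Hey1, a relative of the HES genes that also acts in blood vessels, took another course than Hes5. The log2 signal came to 9.53 in ES cells and 8.15 on Day2, followed by 8.04 on Day3, 9.66 on Day4 and 14.14 on Day7. The values of ES cells and Day4 were close, those of Day2 and Day3 lower, and that of Day7 far above all. Hey1 was lowered 2.80-fold from ES cells to Day3, and was raised 3.07-fold from Day3 to Day4 and 22.3-fold from Day4 to Day7, rank 289 of 16081 genes by size of rise. The latter change, 4.48 on the log2 scale, lay between 4.16 and 5.48 over the settings, and that from ES cells to Day3 between -2.10 and -1.28. At Day7 it stood 24.5-fold above ES cells, a log2 change of 4.61 that lay between 4.30 and 4.66 over the settings. The neuronal markers were raised in 4 of 4 cases over the same step and had a mean log2 signal of 10.28 on Day4 and 16.11 on Day7. Those of floor plate and p3 were raised in 3 of 3, from 7.48 to 12.61, and Shh was well above background on Day7 alone. Of the 3 glial markers, 1 was raised over this step and Gfap, the defining marker of astrocytes, had 1 of 3 probes well above background on Day7, at 6.71 on the log2 scale. Their part in the Hey1 value was not tested, and for Day7 the slide cannot be told apart from the time point.

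Hes1, a Notch target that also responds to other signals and is active in ES cells, changed far less than Hes5. Its log2 signal was 7.90 in ES cells and 7.16 on Day2, followed by 8.78 on Day3, 9.12 on Day4 and 8.05 on Day7. It was raised 3.08-fold from Day2 to Day3, which came to 0.33 on the log2 scale without normalization, and lowered 2.11-fold from Day4 to Day7. The latter change, -1.07 on the log2 scale, was -0.84 under normexp, short of 2-fold, and 0.20 without normalization. The Day7 value was within 0.15 of that of ES cells. Without the Day2 array, the change from ES cells to Day3 was 0.88 and under 2-fold. Hes1 on Day2 lay below the 95th percentile of the ERCC probes on that array, which was at 7.39 on the same scale, as did Lfng. Hes6 differs from the other HES and HEY members, since its protein hinders Hes1 and favours neuronal differentiation, and it is known as a target of proneural factors. Its log2 signal was 13.27 in ES cells and 12.16 on Day2, followed by 11.29 on Day3, 11.82 on Day4 and 12.38 on Day7. Hes6 was thus highest in ES cells and lowest on Day3, where it was lowered 3.95-fold, the change lying between -2.82 and -1.96 over the settings. It did not pass 2-fold from Day3 to Day4 or from Day4 to Day7, with changes of 0.53 and 0.56.

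**Figure D4:**
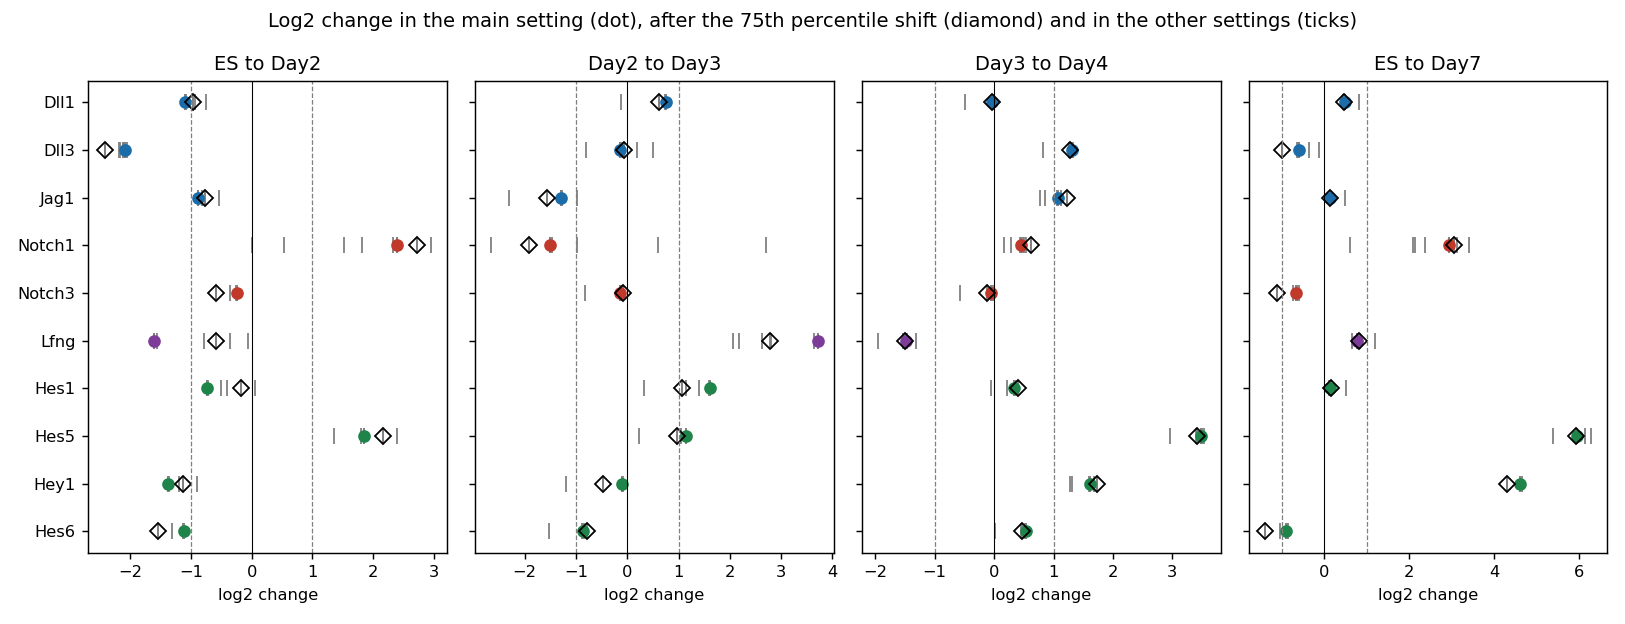
Log2 change of each member (horizontal axis) in 4 comparisons (panels), by quantile normalization (dots), after the 75th percentile shift (diamonds) and in the other settings tried (ticks), with dashed lines at 2-fold. The rises of Hes5 at Day4 and Day7 and of Hey1 at Day7 stay past 2-fold in every setting shown, whereas Lfng at Day2 ranges from -1.60 to -0.07 and Notch1 spans both signs from Day2 to Day3.

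The rest of the pathway was read from a list of 50 further genes, of which 47 had a matched probe. From ES cells to Day2, 1 of 46 genes with a value was raised and 8 were lowered, where 8.82% and 11.3% of all genes were. From Day2 to Day3, 9 of 46 were raised and 1 was lowered, beside 13.0% and 7.76% of all genes. From Day3 to Day4, 6 of 47 were raised and 2 lowered, beside 3.62% and 4.85%, and from Day4 to Day7 7 were raised and 3 lowered, beside 17.8% and 18.1%. From ES cells to Day3, without the Day2 array, 10 of 44 were raised and 7 lowered, beside 14.2% and 10.2%. Genes kept at 0 for want of a fold made up 2 of the 46 at Day2 and 3 of the 46 from Day2 to Day3. Between ES cells and Day7, 16 of 46 were raised and 4 lowered, beside 23.2% and 24.4%, with a median log2 change of 0.26, against -0.07 for all genes. The list genes that changed at least 4-fold in any of the comparisons are named in what follows. The share of all genes past 4-fold was not computed, so their number is not read as a result. Among the ligands, Dner, a Delta-like neuronal surface protein, was raised by 7.78 from Day4 to Day7 and by 5.82 over ES cells, and it fell by 3.76 from ES cells to Day2. Its Day4 value, 4.99, lay just below the 95th percentile of the ERCC probes on that array, at 5.00. The size of its rise from Day4 is therefore uncertain. Dlk1, a Delta-like protein that lacks the part needed to activate Notch, was raised by 2.67 from Day3 to Day4. Among the feedback genes and modulators, Nrarp, which is induced by Notch and restrains it, was lowered by 3.42 on Day2, not well above background on Day3, and raised by at least 1.97 to Day4 and by 1.97 to Day7. Dtx4, a Deltex ubiquitin ligase, was raised by 4.04 between ES cells and Day7, and Dtx1 by 3.35 from Day4 to Day7. Of the other HES and HEY genes, Heyl was well above background on Day4 and Day7 alone and rose by at least 2.04 from Day3 to Day4. Hes3 fell by 2.77 over the same step, and its rise of 1.43 from Day2 to Day3 started from 6.69, below the 95th percentile of the ERCC probes on the Day2 array, at 7.39.

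Of the nuclear partners, Maml3 was raised by 3.45 and Maml2 by 2.27 between ES cells and Day7, and Tle2, a Groucho protein that HES repressors recruit, by 2.75. The dimmer probe of Maml2 was well above background on Day2 alone, at 5.86, where the brighter one was lowest. Neither dimmer probe of Maml3 was well above background in ES cells. Those Maml3 probes were highest on Day4, at 6.91 and 5.88, against 6.79 and 5.28 on Day7. Rbpj itself was lowered by 1.94 from ES cells to Day3 and differed by -0.87 between Day7 and ES cells. Its dimmer probe took another course at the end, with 9.43 in ES cells, 7.96 on Day3, 8.63 on Day4 and 7.27 on Day7, where it was lowest. In the protease that cuts Notch, Aph1b was raised by 3.57 between ES cells and Day7, and Ncstn by 3.18 from Day2 to Day3 and fell by 1.86 from ES cells to Day2. Adam17, a protease of the cell surface, was lowered by 2.07 on Day2 and raised by 1.48 to Day3. Its dimmer probe had a similar low on Day2, at 5.65 against 8.00 in ES cells and 6.82 on Day3, whereas the dimmer probe of Aph1b was at 7.42 in ES cells and 7.92 on Day7. These lows on Day2 were in dim probes: Dner, Nrarp, Maml2 and Ncstn stood between 3.20 and 4.54 there and both probes of Adam17 at 5.77 and 5.65, all below the ERCC level of 7.39. In ES cells, where that level was 6.58, Ncstn (6.40), Maml2 (5.59) and Tle2 (6.34) were below it too, so that the sizes of their changes from ES cells are uncertain. The other 2 receptors, Notch2 and Notch4, differed by 0.65 and 1.28 between Day7 and ES cells, so that Notch4 alone of the pair was raised at least 2-fold. The dimmer probe of Notch2 went the other way, from 5.92 in ES cells, below the ERCC level there, to 5.09 on Day7.

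**Figure D5:**
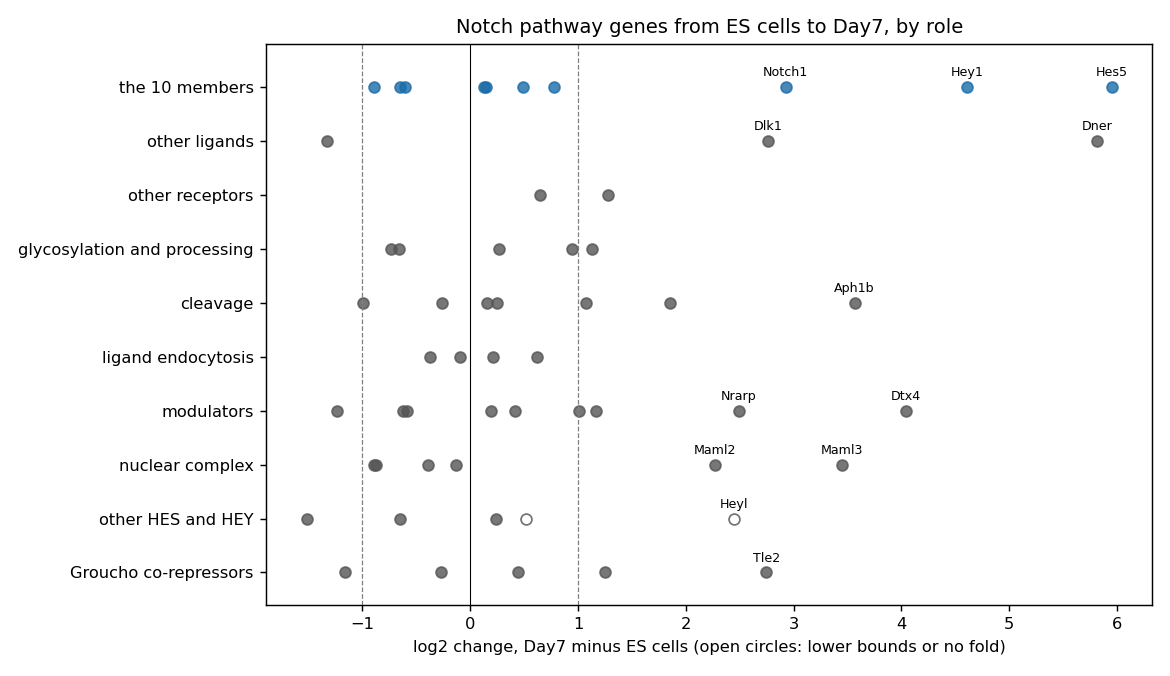
Log2 change from ES cells to Day7 (horizontal axis) of the 10 members (blue) and of 46 further Notch pathway genes with a value (grey), by role (vertical axis), with names for changes of at least 4-fold, open circles for lower bounds and dashed lines at 2-fold. Hes5 (5.96), Dner (5.82), Hey1 (4.61) and Dtx4 (4.04) lie farthest to the right, and no gene shown was lowered 4-fold.

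Genes with the most similar course were sought for 9 members with a log2 range of at least 1 among 9015 genes with such a range and a detected signal on each array. Likeness was the root mean square difference of the log2 values over the 5 arrays, after subtracting each gene's mean. The closest to Hes6 was Rbpj by its brighter probe, with a difference of 0.06, whereas the dimmer Rbpj probe was lowest on Day7 and did not share this course. Nr2f2, a nuclear receptor, was the closest to Hes5 at 0.56, followed by Crabp1, which binds RA in the cell, at 0.69 and Hoxa4 at 0.70. Ngfr, the low-affinity neurotrophin receptor, was the closest to Hey1 at 0.47, and Id4, an inhibitor of basic helix-loop-helix factors, was the third at 0.49. The closest to Jag1 was Enc1 at 0.26, to Dll3 Pdgfc at 0.16, to Lfng Faah at 0.40, to Hes1 Prkaca at 0.08, to Dll1 Lrrc46 at 0.04 and to Notch1, by its brighter probe, Inpp4a at 0.08. These matches rest on 5 values a gene and are a description only.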

How the data were processed

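Total RNA of 5 cultures, 1 per time point, had been labelled with Cy3 and hybridized to Agilent mouse one-colour arrays. The authors deposited the scanner output of Agilent Feature Extraction 10.5.1, in which the intensity of each spot is background-subtracted and detrended within its array, and a further table for these arrays with log2 values, each array having its 75th percentile at 0. Samples were grouped by their labels.

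After removal of control spots and outliers, log2 intensities were averaged over the spots of a probe, and quantile normalization was run with limma 3.58.1 in R 4.3.3, after the quantile analysis that a legend of the study names. Later steps used Python 3.11.15, numpy 2.4.6 and pandas 2.3.3, and matplotlib 3.10.9 drew the plots. Accessions of 26300 of 55681 probes matched 19897 symbols of RefSeq (GRCm38.p6), used for names because the array was designed on mm9. The brightest probe on average stood for a gene. A probe not well above background was raised to the lowest detected value of its array where it lay under it, which makes a change a lower bound. Where this left no fold in the direction of the detected array, the change was set to 0 and kept as a value. Genes dim on both arrays had no value. Precision is limited by 1 array per time point. The change step was tested on simulated data. The genes named are all members, and list genes past 4-fold in a comparison with Rbpj, Notch2, Notch4, Neurog1 and Neurog2. Rbpj, Notch2 and Notch4 were added after their values were seen. Some listed genes are not reported here. The members and lists were chosen with earlier results of these data known.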

Additional observations from a re-analysis of the deposited data

Results flagged for a closer look

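Spots for ERCC control sequences, which the comparisons do not use, gave signal on the Day2 array: 68.4% were well above background, against 9.88% in ES cells, 6.13% on Day3, 12.0% on Day4 and 7.97% on Day7. On the quantile-normalized scale the 95th percentile of these probes was 7.39 on Day2, 6.58 in ES cells and 4.74 to 5.00 on the later arrays. Of the members, Lfng (5.86) and Hes1 (7.16) lay below that level on Day2, as did the dimmer probe of Notch1 (2.93), and in ES cells the brighter probe of Notch1 (6.02). Hes5 lay at 6.63 in ES cells, just above it, and at 8.47 on Day2. The part of this signal in the members' values was not tested.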

How the results depend on the processing

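No paired analysis was possible because there was a single array for every time point, and for the same reason no replicate could be left out. Naming probes by a gene name column of the array was intended but not run, since the scanner files hold no such column. Of 60 changes, 10 members in 6 comparisons, 30 passed 2-fold, and 17 of these did so in every setting that gave a value. Opposite signs were found for 3 of them. Hes1 from Day4 to Day7 changed by 0.20 without normalization. Notch1 from Day2 to Day3 changed by 0.60 with the mean over its probes and by 2.70 with its dimmer probe, and from Day4 to Day7 by -0.56 with its dimmer probe. Members past 2-fold numbered 4 at Day2 against ES cells, 3 from Day3 to Day4, 8 from Day4 to Day7 and 5 from ES cells to Day7 without normalization, against 7, 5, 4 and 3 in the main setting. Here the brightness of an array enters each change. From ES cells to Day7 they numbered 5 with the 75th percentile shift, 5 by the authors' table and 7 at 1.5-fold. From Day2 to Day3 they numbered 3 under normexp, against 5. At 4-fold they numbered 2 at Day2 and 1 at each later step. Shares of all genes are given at 2-fold only, so the counts at 1.5-fold and 4-fold are not compared with all genes. Settings that leave out the Day2 or the Day7 array from the normalization, use another detection flag or drop the filter on dim probes moved no count of members. Over all genes, those raised made up 43.9% of those changed from ES cells to Day2 and 70.2% after the 75th percentile shift, 62.6% and 25.5% from Day2 to Day3, and 58.2% and 45.9% from ES cells to Day3. Without normalization these were 82.9%, 3.41% and 16.2%, with 20.1% from Day3 to Day4 against 42.7% and 94.0% from Day4 to Day7 against 49.5%. Under normexp the share from Day3 to Day4 was 53.0%. The 75th percentile shift put the median of all genes at -0.35 from ES cells to Day7 and at -0.25 from Day4 to Day7, and without normalization it was 1.06 over the latter step. Except where named, the cause of these shifts was not tested. Low signal limits the reading of Notch1 in ES cells and of Lfng and Hes1 on Day2.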
